A study of Mus musculus with 8 samples.

Results

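Tuft cells are rare chemosensory cells of the intestinal epithelium, and 9 genes that mark their lineage and identity were followed here: Pou2f3, Gfi1b, Dclk1, Avil, Rgs13, Sh2d6, Sh2d7, Lrmp and Chat. They were listed by name as genes of tuft cell identity, and all 9 were found among the 56941 genes of the count table and were abundant enough to be tested. The question was whether they differed between the strains by 1 common shift, as a change in the number of tuft cells would give. Bulk RNA sequencing had been done on the jejunum, a stretch of small bowel below the duodenum, of naive C3H/HeJ (C3H) mice and naive C57BL/6 (B6) mice, with 4 libraries of each strain (C3H replicates 1, 3, 4 and 5, B6 replicates 2, 3, 4 and 5). Both are inbred, and the labels name no transgene and no treatment. They give an age of 6 to 8 weeks and at least 8 weeks of shared housing of the strains before tissue was taken, without saying at which point the age was counted. C3H/HeJ mice are known for a loss-of-function change in the lipopolysaccharide receptor Tlr4, which B6 mice do not have. The labels place all 8 libraries in batch 1 and do not say whether 1 library stands for 1 mouse, so every p-value reflects the variation among these 8 libraries, which may be technical.

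Tuft cells sense parasites and microbial metabolites in the gut lumen through taste-like receptors and the channel Trpm5, and answer with interleukin-25, leukotrienes and acetylcholine. The POU-domain transcription factor Pou2f3 is required for the lineage: mice without it lack tuft cells. Interleukin-13 from group 2 innate lymphoid cells makes epithelial precursors form more tuft cells, so their number in the small intestine can change several-fold with infection or diet. In bulk RNA, fewer cells of a type and less RNA per cell cannot be told apart.

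The jejunal libraries held 37205896 to 58251332 counts each. The epithelial markers Epcam, Cdh1, Vil1 and 7 others summed to 9685 to 13140 normalised read counts (CPM, scaled to library size) in C3H libraries and 11250 to 13370 CPM in B6 libraries. Transcripts of pancreatic acinar cells, from a neighbouring organ, set some libraries apart: 9 such genes summed to 48.1, 2728, 74.6 and 1243 CPM in C3H replicates 1, 3, 4 and 5, and to 228, 83.3, 24.3 and 36.7 CPM in B6 replicates 2, 3, 4 and 5. C3H 3, C3H 5, B6 2 and B6 3 were the 4 richest, and results were also computed without them. Of 18025 genes tested, 3857 (21.4%) passed the threshold between the strains, with a median log2 fold change of 0.03 over all genes. In C3H 10.1% of all genes tested were lower and 11.3% higher, the shares to set beside each count of list genes below.

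Since Pou2f3 is a member of the octamer-binding family, the 250 bases before the start sites of the 9 genes were searched for the octamer ATGCAAAT and its overlapping parts ATGCAAA and TGCAAAT on both strands, in promoter windows from RefSeq on build GRCm38.p6. Windows were found for 7 of the 9 genes, 8 windows in all because Dclk1 has 2 start sites; Pou2f3 and Lrmp had none. The full octamer stood in 526 of 32851 windows of that length (1.6%) and in none of the 8. ATGCAAA stood in 4.12% of all windows and TGCAAAT in 3.56%. Avil held ATGCAAA at 2 positions, from -115 to -109 on the strand opposite to the gene and from -15 to -9 on its own strand, counted from the start site. Chat held TGCAAAT from -20 to -14 on its own strand. The windows of both genes are shown with the matched letters in capitals, and that of Sh2d7, the member with the smallest adjusted p, is shown beside them as 1 without a match. Each is written 5′ to 3′ on the strand of the gene. They lie at chr10:127000459-127000708 on the plus strand (Avil), chr14:32465910-32466159 on the minus strand (Chat) and chr9:54533873-54534122 on the plus strand (Sh2d7).
Avil: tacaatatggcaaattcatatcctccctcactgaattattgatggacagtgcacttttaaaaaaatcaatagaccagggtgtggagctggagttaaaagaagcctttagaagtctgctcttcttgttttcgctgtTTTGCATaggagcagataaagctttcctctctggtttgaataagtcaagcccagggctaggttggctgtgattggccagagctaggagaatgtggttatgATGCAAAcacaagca
Chat: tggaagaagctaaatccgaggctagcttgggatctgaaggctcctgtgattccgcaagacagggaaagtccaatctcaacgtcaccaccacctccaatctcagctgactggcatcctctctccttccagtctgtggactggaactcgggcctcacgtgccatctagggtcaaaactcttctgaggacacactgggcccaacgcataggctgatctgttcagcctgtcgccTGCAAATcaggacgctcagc
Sh2d7: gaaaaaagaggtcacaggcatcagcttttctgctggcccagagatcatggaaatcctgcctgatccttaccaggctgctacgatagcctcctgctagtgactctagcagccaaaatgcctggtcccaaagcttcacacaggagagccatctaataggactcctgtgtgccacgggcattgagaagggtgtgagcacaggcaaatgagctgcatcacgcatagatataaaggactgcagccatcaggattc
A match describes the letters of the window and not a bound site, and a window without one says nothing of what binds there.

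Expression of the tuft identity genes was lower in C3H. Of the 9 genes, 8 were lower and 0 were higher by edgeR's quasi-likelihood test at a Benjamini-Hochberg adjusted p under 0.05, a share of 88.9% where 10.1% of all genes tested were lower and 11.3% higher. In 7 of them every C3H library lay below every B6 library, which held for 11.7% of all genes tested. The members' median log2 fold change was -1.06, a 2.09-fold lower level, and 3.48% of all genes tested lay at or below that value. This median is the value of Chat, which had only 43 counts in C3H and 93 in B6. Summed over the 9 genes, expression was 30.3, 33.0, 29.3 and 33.4 CPM in C3H libraries and 56.4, 61.7, 62.6 and 67.9 CPM in B6 libraries. The sums did not overlap, with a mean of 31.5 ± 2.01 CPM in C3H and 62.2 ± 4.70 CPM in B6 (SD, n = 4 each). Lrmp, Avil and Dclk1 made up 69.3% of the sum in C3H and 63.2% in B6, as means of libraries. The sum thus mostly reflects these 3 genes. Without the 4 pancreas-rich libraries 8 members were again lower, where 4.43% of all genes tested were lower and 4.6% higher, with a median of -1.25.

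**Figure D1:**
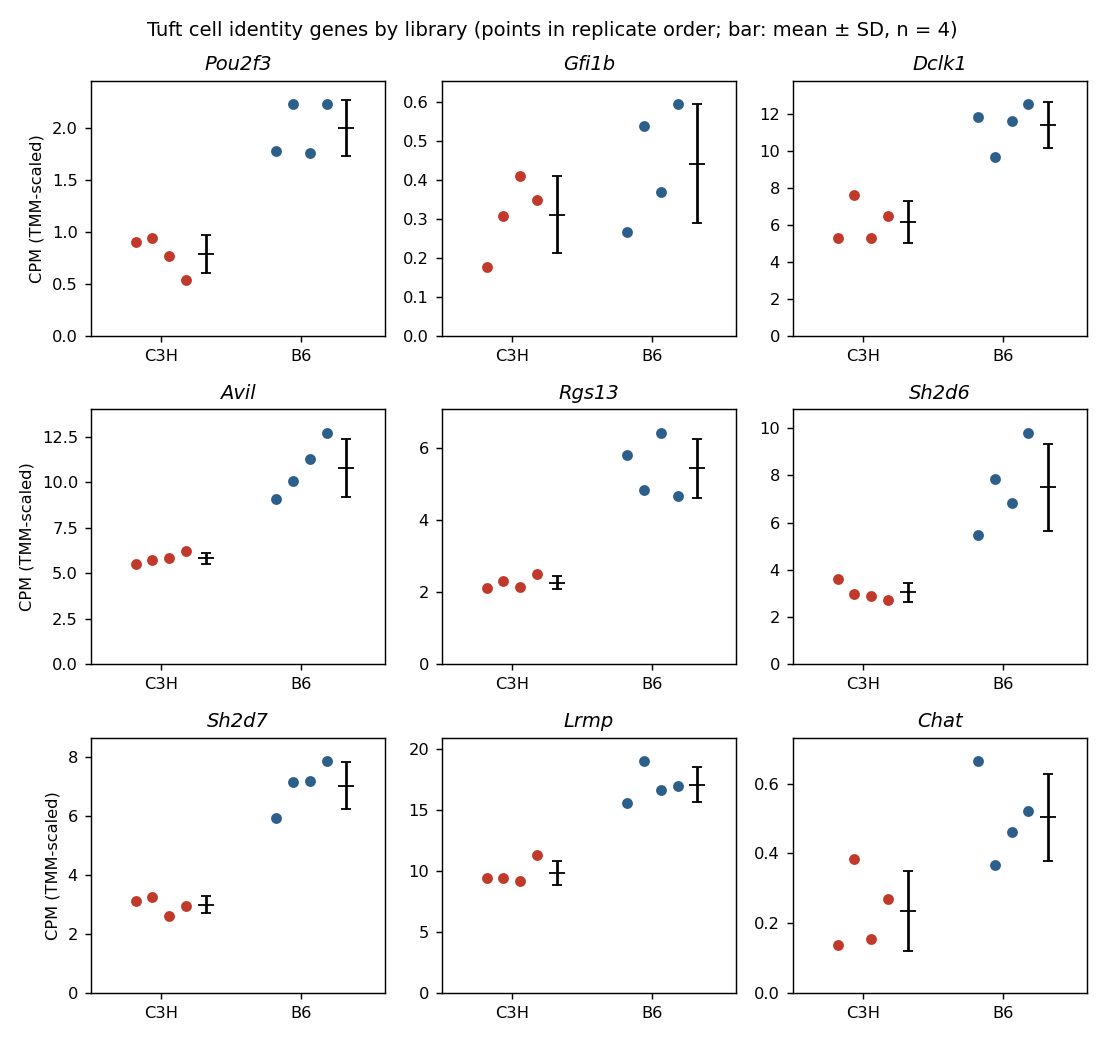
Expression of each tuft identity gene in CPM on a linear axis from 0, with 1 point per library in replicate order, C3H left and B6 right, and the mean ± SD (n = 4) beside the points. The points of the strains are apart for 7 genes and overlap for Gfi1b and Chat, the 2 genes with the lowest levels.

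Pou2f3, the lineage factor, had 0.903, 0.941, 0.767 and 0.537 CPM in C3H libraries and 1.78, 2.23, 1.76 and 2.23 CPM in B6 libraries. All 4 C3H values lay below all 4 B6 values, and C3H 5 was the lowest of the 8. The means were 0.787 ± 0.182 CPM in C3H and 1.999 ± 0.267 CPM in B6 (SD, n = 4 each), on 145 and 373 counts. Its log2 fold change of -1.33 (standard error 0.20, 95% interval -1.76 to -0.89, edgeR adjusted p = 0.000572) was the lowest of the 9, a 2.51-fold lower level in C3H.

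Gfi1b, a zinc-finger repressor that among gut epithelial cells marks tuft cells and is otherwise a gene of erythroid and megakaryocyte precursors, had 0.177, 0.307, 0.409 and 0.349 CPM in C3H libraries and 0.266, 0.539, 0.370 and 0.594 CPM in B6 libraries. C3H 4, the highest C3H library, lay above 2 of the B6 libraries, so the strains overlapped. The mean was 0.311 ± 0.0986 CPM in C3H and 0.442 ± 0.152 CPM in B6 (SD, n = 4 each), on 54 and 84 counts. The log2 fold change was -0.55 (standard error 0.32, edgeR adjusted p = 0.278), and its interval from -1.26 to 0.17 held both no difference and a 2.40-fold lower level. Of 8 erythroid and megakaryocyte markers 4 were tested and 2 were higher in C3H (Itga2b by 0.88 and Gata1 by 1.01 on the log2 scale), while Alas2 (0.46) and Pf4 (-0.31) did not pass. The 8 summed to 4.83 to 6.28 CPM in C3H libraries and 2.97 to 4.52 CPM in B6 libraries. The part of these cells in the Gfi1b level was not tested.

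Rgs13 and Lrmp act downstream of receptors. Rgs13, a regulator that speeds the shut-off of G proteins, had 2.12, 2.30, 2.15 and 2.50 CPM in C3H libraries and 5.79, 4.83, 6.41 and 4.66 CPM in B6 libraries. The C3H values lay close together and below all B6 values. The mean was 2.27 ± 0.174 CPM in C3H and 5.42 ± 0.826 CPM in B6 (SD, n = 4 each), a log2 fold change of -1.26 (standard error 0.14, edgeR adjusted p = 6.02e-05).

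Lrmp, also called Irag2, a membrane protein of the endoplasmic reticulum that binds inositol trisphosphate receptors, had 9.44, 9.41, 9.13 and 11.3 CPM in C3H libraries and 15.6, 19.0, 16.7 and 17.0 CPM in B6 libraries. C3H 5 stood above the other C3H libraries but below every B6 library. The mean was 9.83 ± 1.01 CPM in C3H and 17.1 ± 1.42 CPM in B6 (SD, n = 4 each). The log2 fold change of -0.80 (standard error 0.10, 95% interval -1.01 to -0.58, edgeR adjusted p = 0.000166) was the smallest among the 8 that passed.

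Rgs13 and Lrmp are expressed by lymphocytes as well, and Rgs13 also by mast cells. T cell markers were lower in C3H for 7 of 8 and higher for 1, with a median log2 fold change of -0.99 and sums of 66.5 to 89.2 CPM in C3H libraries and 107.8 to 136.1 CPM in B6 libraries. Of 11 B cell and germinal centre markers 9 were tested, 1 was lower (Gcsam, by 1.73 on the log2 scale) and 0 were higher. Their sums overlapped, at 18.6 to 33.7 CPM in C3H libraries and 19.1 to 65.8 CPM in B6 libraries, with B6 3 at the top. Of 10 mast cell markers 8 were tested and 8 were higher in C3H, with sums of 28.5 to 51.6 CPM in C3H libraries and 11.9 to 15.7 CPM in B6 libraries. The part of these cells in the Rgs13 and Lrmp levels was not tested.

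Sh2d6 and Sh2d7 encode adaptor-like proteins with an SH2 domain, the module that binds phosphorylated tyrosine, and both are known markers of tuft cells in the gut. Sh2d6 had 3.61, 2.99, 2.89 and 2.71 CPM in C3H libraries and 5.47, 7.87, 6.82 and 9.81 CPM in B6 libraries. Sh2d7 had 3.12, 3.26, 2.61 and 2.95 CPM in C3H libraries and 5.92, 7.16, 7.19 and 7.86 CPM in B6 libraries. For both genes all C3H libraries were below all B6 libraries, and Sh2d6 varied more among the B6 libraries than Sh2d7 did (7.49 ± 1.83 against 7.03 ± 0.806 CPM, SD, n = 4). In C3H the means were 3.05 ± 0.391 CPM for Sh2d6 and 2.99 ± 0.282 CPM for Sh2d7. The log2 fold change was -1.29 for Sh2d6 (standard error 0.18, edgeR adjusted p = 0.000324). For Sh2d7 it was -1.23 (standard error 0.12, edgeR adjusted p = 3.33e-05). The genes are on different chromosomes (6 and 9).

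Avil and Dclk1 belong to the cytoskeleton of the cell. Avil, or advillin, an actin-binding protein of the villin family found in the apical bundle of tuft cells, had 5.52, 5.74, 5.83 and 6.23 CPM in C3H libraries and 9.08, 10.05, 11.3 and 12.7 CPM in B6 libraries. The C3H values had the smallest spread relative to their mean among the 9 genes, at 5.83 ± 0.299 CPM against 10.8 ± 1.58 CPM in B6 (SD, n = 4 each), and the strains did not overlap. The log2 fold change was -0.89 (standard error 0.12, edgeR adjusted p = 0.000248).

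Dclk1, a kinase that binds microtubules and the most used histological marker of intestinal tuft cells, had 5.28, 7.64, 5.32 and 6.47 CPM in C3H libraries and 11.8, 9.68, 11.6 and 12.5 CPM in B6 libraries. C3H 3 was the highest C3H library and B6 3 the lowest B6 library, and they did not overlap. The mean was 6.18 ± 1.12 CPM in C3H and 11.4 ± 1.23 CPM in B6 (SD, n = 4 each), a log2 fold change of -0.89 (standard error 0.14, edgeR adjusted p = 0.000819). Neurons also express both genes: of 13 markers of enteric neurons and glia 0 were higher and 1 was lower (Uchl1, by 0.48 on the log2 scale), with a median of -0.06 and sums of 37.9 to 44.7 CPM in C3H libraries and 42.03 to 51.1 CPM in B6 libraries. The part of neurons in the Avil and Dclk1 levels was not tested.

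Chat, the enzyme that makes acetylcholine, was the member with the lowest level per length of exon in both strains. It had 0.137, 0.384, 0.153 and 0.269 CPM in C3H libraries and 0.664, 0.368, 0.462 and 0.520 CPM in B6 libraries, on 7, 20, 6 and 10 counts and 25, 15, 25 and 28 counts. C3H 3 lay above B6 3 and so the strains overlapped. Its log2 fold change was -1.06 (standard error 0.34, 95% interval -1.81 to -0.32, edgeR adjusted p = 0.0446). This call ended without any 1 of C3H 1, C3H 4, C3H 5, B6 2, B6 4 or B6 5 (adjusted p = 0.108, 0.109, 0.0673, 0.102, 0.0679 and 0.0893), and with library totals as scaling (0.066). Chat is also a gene of enteric neurons and of some lymphocytes.

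Other genes of acetylcholine use, 7 in all and all tested, held 2 lower and 1 higher, with a median of -0.31. The choline transporter-like gene Slc44a4 averaged 57.5 CPM in C3H and 85.4 CPM in B6 (log2 fold change -0.57, edgeR adjusted p = 0.0109). Ache, which breaks acetylcholine down, was lower by 0.49 on the log2 scale (edgeR adjusted p = 0.0234), a call that held in 14 of 18 alternatives and ended with library totals as scaling (adjusted p = 0.0546). Bche, a second esterase abundant in the gut, averaged 402 CPM in C3H and 262 CPM in B6 (0.62, edgeR adjusted p = 0.0487), a call that held in 2 of the 8 fits without 1 library: it ended without C3H 3, C3H 4, C3H 5, B6 2, B6 3 or B6 5 (adjusted p up to 0.127). Slc18a3, the vesicular acetylcholine transporter that lies within the Chat locus, had a log2 fold change of -0.26 (edgeR adjusted p = 0.530).

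**Figure D2:**
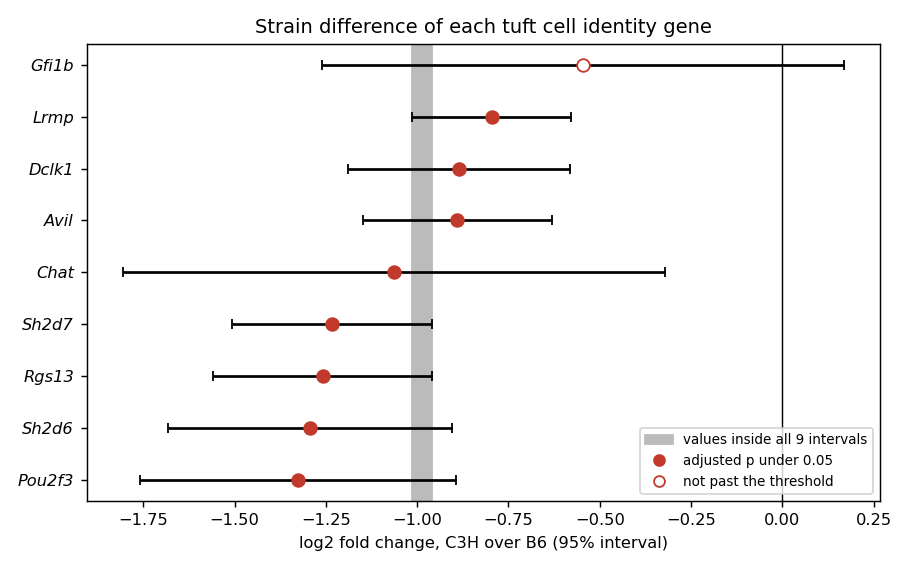
Log2 fold change of each tuft identity gene, C3H over B6, as points with 95% intervals from edgeR, and a grey band of the values that lie inside all 9 intervals. The points run from -1.33 for Pou2f3 to -0.55 for Gfi1b, and the band runs from -1.01 to -0.96.

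The fold changes of the 9 genes spanned 0.78 on the log2 scale, from -1.33 to -0.55. Values from -1.01 to -0.96 lay inside the 95% intervals of all 9. The members' median of -1.06 was the estimate of Chat itself, so the interval of Chat held it by construction. This median lay inside 8 intervals in all and below that of Lrmp, the member measured with the smallest standard error. It was taken from the same 9 estimates, so the count of intervals is not an independent check of 1 common shift. Pou2f3, Sh2d6, Rgs13 and Sh2d7 stood between -1.33 and -1.23, while Avil, Dclk1 and Lrmp stood between -0.89 and -0.80.

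A single shift would leave the ratio of any 2 members equal in both strains, so all 36 ratios were compared. The difference in mean log2 ratio, C3H minus B6, was tested with a two-sided exact permutation test over the 8 libraries, for which the smallest p is 0.0286. None of the 36 pairs passed after Benjamini-Hochberg adjustment (smallest adjusted p = 0.257), and 4 had an exact p under 0.05. At least 21 pairs would have had to reach the smallest p for any to pass, so the design could show only a widespread departure.

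The 4 pairs were those whose ratios did not overlap between the strains. Against Lrmp, the ratio was lower in C3H for Pou2f3 by 0.52 (exact 97.1% interval from the same test -1.39 to -0.05), for Rgs13 by 0.44 (-0.79 to -0.04) and for Sh2d7 by 0.43 (-0.82 to -0.11), all on the log2 scale. The ratio of Avil to Sh2d7 averaged 0.96 ± 0.17 in C3H and 0.61 ± 0.09 in B6 (log2, SD, n = 4 each), a difference of 0.35 (0.11 to 0.66). Each of the 4 had the smallest exact permutation p of 0.0286. Without C3H 1 the number of pairs whose ratios did not overlap was 13, and with another library left out it was 4 to 6. Leaving a library out narrows the range of its strain, so separation comes more easily by chance and this number can hardly fall.

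In the other 32 pairs the interval of the difference held 0, and its width shows what could have been seen. The ratio of Sh2d6 to Sh2d7, the SH2-domain pair, differed by -0.04, with an interval of -0.44 to 0.32. For Dclk1 and Avil the difference was -0.02 (-0.51 to 0.46). Ratios with Gfi1b or Chat had few counts behind them, and the widest interval of the 36 spanned 3.18 on the log2 scale, against 0.55 for the narrowest. The largest difference, -0.87 for Pou2f3 against Gfi1b, had an interval of -1.995 to 0.27. The median size of difference over the pairs was 0.34, and 6 of the 36 were over 0.5.

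**Figure D3:**
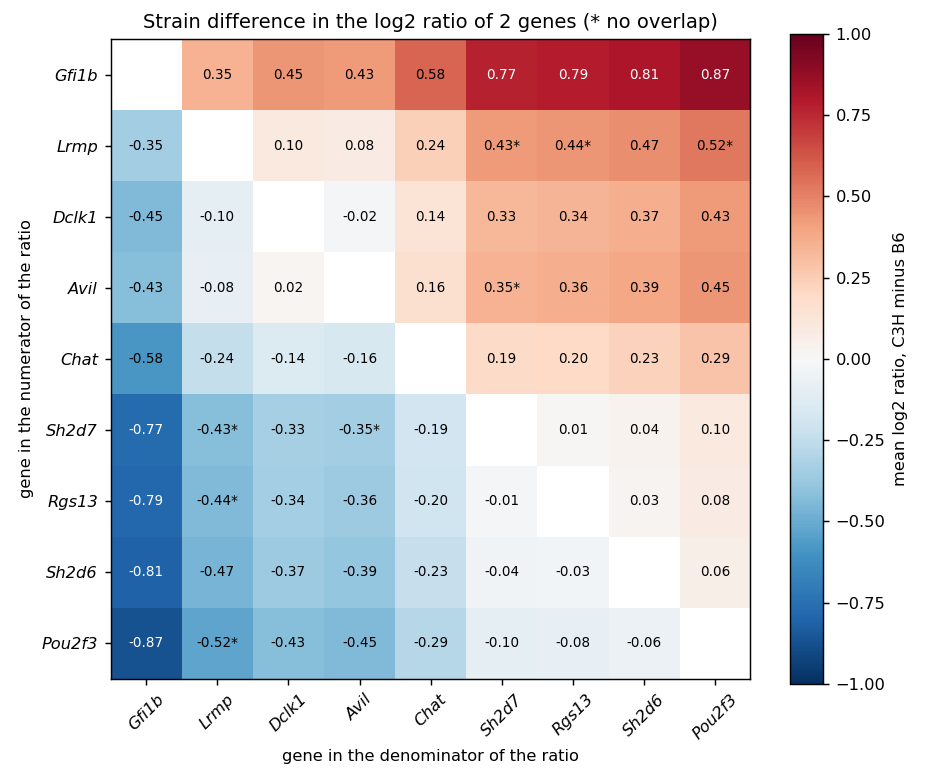
Difference in mean log2 ratio between strains, C3H minus B6, for every pair of tuft identity genes, with the row gene over the column gene, red where the ratio was higher and blue where it was lower in C3H. Asterisks mark the 4 pairs with no overlap between libraries, 3 of which involve Lrmp and are thus not independent.

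Per kilobase of exon, Lrmp, Sh2d6, Avil, Rgs13 and Sh2d7 had the 5 highest levels in both strains, and the 2 transcription factors, Dclk1 and Chat lay lower. In C3H, Lrmp was the highest at 2.42 CPM per kilobase, above Sh2d6 at 1.81 and Avil at 1.72, whose libraries overlapped, followed by Rgs13 at 1.37, Sh2d7 at 1.08, Dclk1 at 0.404, Pou2f3 at 0.255, Gfi1b at 0.170 and Chat at 0.0502. In B6, Sh2d6 was at 4.43, Lrmp at 4.19, Rgs13 at 3.28, Avil at 3.18 and Sh2d7 at 2.55, each overlapping its neighbour, and then came Dclk1 at 0.747 and Pou2f3 at 0.647, which overlapped, Gfi1b at 0.242 and Chat at 0.107. In C3H only Sh2d6 with Avil and Pou2f3 with Gfi1b overlapped as neighbours. Exon lengths count every exon of the gene, which lowers the value of Dclk1 with its 15296 bases over many transcripts.

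The average over the members also varied among libraries of 1 strain. Relative to the mean of its strain, the average over the 9 genes was -0.12, 0.15, -0.07 and 0.04 (log2) in C3H 1, 3, 4 and 5, and -0.13, -0.01, -0.02 and 0.16 in B6 2, 3, 4 and 5. C3H 1 was the lowest C3H library for 5 of the 9 genes and C3H 3 the highest for 4. B6 2 was the lowest B6 library for 5 genes and B6 5 the highest for 5. These averages were small beside the strain difference of -1.06. In each library the average was smaller in size than the SD over the members, which ran from 0.14 to 0.30. A shift of the members as a group within a strain was not tested.

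**Figure D4:**
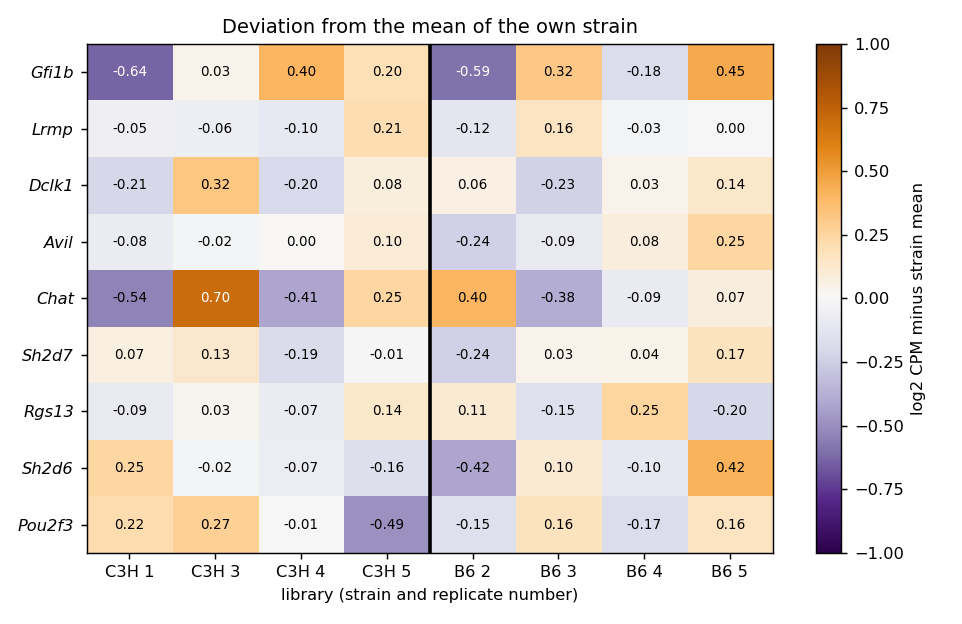
Deviation of each tuft identity gene from its own strain's mean log2 CPM in each library, with C3H libraries left and B6 libraries right. The averages over the 9 genes run from -0.12 to 0.15 in C3H and from -0.13 to 0.16 in B6.

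Other tuft cell genes, 74 in 5 lists of which 66 were tested, had 27 lower and 5 higher in C3H, where 10.1% of all genes tested were lower and 11.3% higher. Under the other scalings, filters and tools and with 1 library left out, 19 to 30 were lower and 2 to 4 higher. The number changed was 12 in all without the 4 pancreas-rich libraries, which left 2 libraries a strain and 9.02% of all genes tested as called. Of 10 taste transduction genes 6 were tested, with 3 lower, 1 higher and a median of -0.94. Trpm5, the cation channel that depolarises tuft cells, averaged 4.47 CPM in C3H and 14.8 CPM in B6 (log2 fold change -1.73, edgeR adjusted p = 5.93e-07), a lower fold change than that of any of the 9 identity genes. Tas1r2, a sweet taste receptor subunit, had 8 counts in C3H and 83 counts in B6 and was lower by 3.22 on the log2 scale (edgeR adjusted p = 0.00119), and by 3.85 without C3H 5, which held 4 of the C3H counts. Sucnr1, the receptor for succinate, had 23 and 78 counts (-1.68, edgeR adjusted p = 0.00433). Tas1r3, the partner of Tas1r2, went the other way, at 1.82 CPM in C3H and 0.863 CPM in B6 (1.08, edgeR adjusted p = 0.00139). Gnat3, the taste G protein, was not tested, with 2 counts in C3H and 40 in B6.

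Of 35 effector and further tuft genes 34 were tested, with 20 lower, 1 higher and a median of -0.45; with library totals as scaling 12 changed. The lowest adjusted p values were those of Smpx (log2 fold change -1.71, adjusted p = 0.000179), Ly6g6f (-2.34, 0.000261), B4galnt4 (-0.71, 0.000467) and Matk, a tyrosine kinase that restrains Src-family kinases (-1.03, 0.000634), all by edgeR. The 1 higher gene was Ptgs1, the constitutive cyclooxygenase that many gut cells express, at 24.0 CPM in C3H and 20.5 CPM in B6 (0.23, edgeR adjusted p = 0.0423). It is outside the rule for naming genes and was named after its value was seen. No gene of this list was higher under the other scalings, with no filter, with DESeq2 or limma-voom, or with any 1 library other than B6 5 left out. Il25, the cytokine of tuft cells, was not tested, with 7 counts in C3H and 20 in B6.

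Of 13 further regulators of epithelial and tuft lineage choice 12 were tested, 1 was lower and 2 were higher, with a median of -0.01. Pou2af2, a coactivator of Pou2f3 that the annotation lists as 1810046K07Rik, averaged 10.6 ± 0.587 CPM in C3H and 8.22 ± 1.30 CPM in B6 (SD, n = 4 each; log2 fold change 0.37, edgeR adjusted p = 0.0455). That call held in 4 of 18 alternatives and ended without any 1 of C3H 1, C3H 3, C3H 4, C3H 5, B6 2, B6 4 or B6 5 (adjusted p up to 0.131). Pou2af3, the other coactivator, was at -0.44 (edgeR adjusted p = 0.136). Gfi1, a transcriptional repressor active in secretory progenitors, was lower by 0.60 on the log2 scale (edgeR adjusted p = 0.00581). Neurog3, the factor that commits cells to the enteroendocrine lineage, averaged 1.97 CPM in C3H and 0.889 CPM in B6 (1.15, edgeR adjusted p = 0.00724).

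Genes through which type 2 immunity acts on tuft cells, 9 of which 7 were tested, held 1 lower and 0 higher, with a median of -0.33; 2 were lower under each of the other scalings, with a mean of at least 100 counts, with limma-voom and without C3H 3, C3H 4, C3H 5, B6 4 or B6 5, and 3 with no filter or with DESeq2. Il33, an alarmin of epithelial and stromal cells, averaged 44.4 CPM in C3H and 90.8 CPM in B6 (log2 fold change -1.03, edgeR adjusted p = 2.41e-05). Il4 and Il13 were too low to test, with 19 and 1 counts in C3H and 11 and 3 counts in B6.

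**Figure D5:**
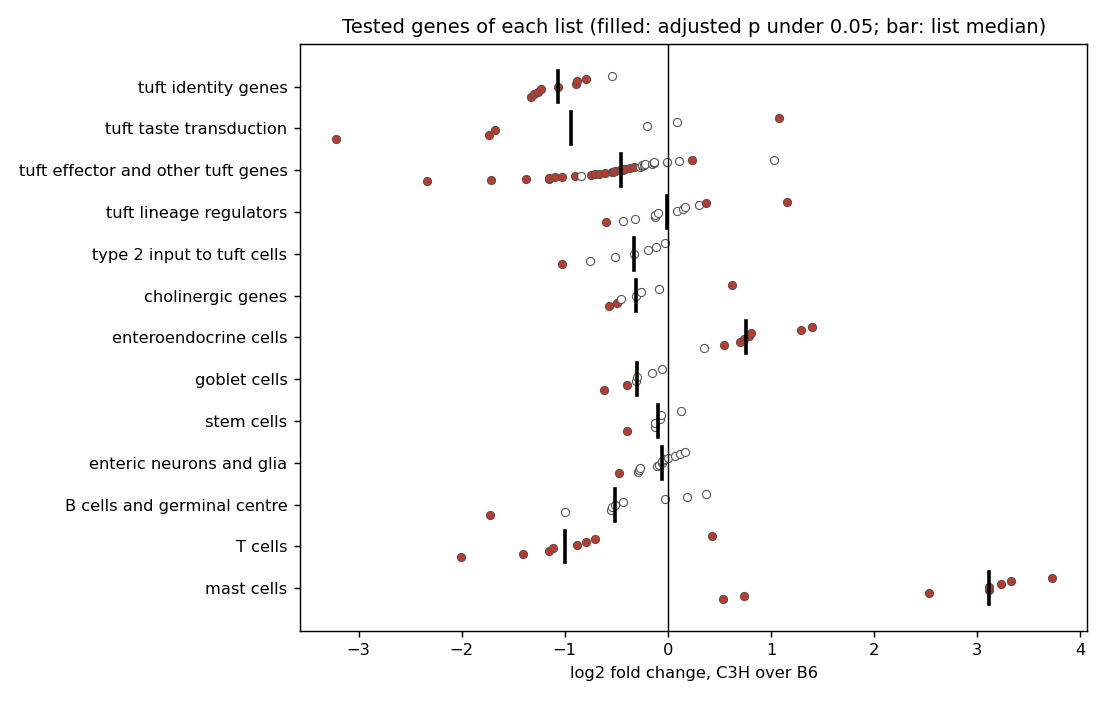
Log2 fold change, C3H over B6, of every tested gene of the tuft lists and of some lists for other cell types. The latter are enteroendocrine, goblet and stem cells, enteric neurons and glia, B cells, T cells and mast cells. Points are filled where the edgeR adjusted p was under 0.05, with a bar at each list's median. The tuft identity genes have a median of -1.06 and all lie below 0, while the lineage regulators have a median of -0.01 and lie on both sides of it.

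Markers of the other epithelial lineages were read beside the tuft genes, where 10.1% of all genes tested were lower and 11.3% higher. Of 10 general epithelial markers 2 were lower and 0 higher (median -0.28), and of 6 goblet cell markers 2 were lower and 0 higher (median -0.30). Paneth cell markers had 1 lower and 1 higher of 5 (median 0.11), and stem cell markers 1 lower of 6 (median -0.10). The higher Paneth cell gene was Pla2g2a, at 678 CPM in C3H and 5.34 CPM in B6, a difference far from those of the rest of its list. The lower one was Ang4 (log2 fold change -1.22). Enteroendocrine markers were higher for 7 of 8, with a median of 0.76 and sums of 467 to 684 CPM in C3H libraries and 252 to 360 CPM in B6 libraries. Scg5 and Gip, the gene of an incretin hormone, led that list (log2 fold changes 1.40 and 1.29). The difference between these lists and the tuft identity genes was not tested.

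The genes next to each member on the chromosome were read for shifts shared by a locus. Of 18 nearest tested protein-coding neighbours 2 were lower, 1 was higher and 15 did not pass. Among all genes tested 10.1% were lower and 11.3% higher, so counts this small do not stand out. Both neighbours of Rgs13, Rgs2 and Rgs1, were lower (log2 fold changes -0.56 and -1.54, edgeR adjusted p = 0.00187 and 2.92e-06). They belong to the same family of G protein regulators, and lymphocytes express Rgs1. The 1 higher neighbour was Tsfm next to Avil (0.48, edgeR adjusted p = 0.0422), whose exons share 165 bases with Avil on the opposite strand, 4.86% of the Avil exons. Cib2 shares 227 bases with Sh2d7 (8.23%, log2 fold change 0.01) and Casc1 101 bases with Lrmp (2.48%, 0.40, edgeR adjusted p = 0.524). Without the strand setting of the counting, reads in these stretches cannot be told apart.

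Of the 10 genes whose profile over the 8 libraries was most like that of the tuft identity genes, 1 was on another tuft list. Likeness was the root mean square difference between a gene's log2 CPM, centred on its own mean, and the members' median centred profile, among 14345 other genes with a mean of at least 1 CPM. The 10 closest were Pccb (0.09), Cd101, Matk (0.11), Faap20, Cyp4f18, Cd3d, Itgb7, Mansc1, Scnm1 and Sall2 (0.12). Cd3d, a T cell receptor subunit, and Itgb7, a gut-homing integrin chain, are lymphocyte genes. Of the 53 genes of the other tuft lists that were ranked, 2 were among the 100 closest, Matk at rank 3 and Il33 at rank 24. Among the members themselves the distance ran from 0.12 for Avil to 0.47 for Gfi1b. Of the other genes, 118 lay within 0.2 and 509 within 0.3, while Rgs13, Sh2d6, Pou2f3, Chat and Gfi1b lay beyond 0.2. Closeness to this profile is thus not particular to tuft genes. The distance depends largely on the size of the strain difference, and the 10 closest had log2 fold changes from -1.14 to -0.86. Trpm5, with a larger shift of -1.73, stood at rank 984. A low rank therefore does not tell whether a gene is expressed by tuft cells. The members define the median profile, so their distances are not measured like those of other genes.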

How the data were processed

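Per the submitters' processing notes, the authors used STAR 2.7.9a, HTSeq 2.0.2 and GRCm39, and they deposited 1 table of raw counts per gene. Per the labels, stranded mRNA libraries were made from 200 ng of RNA whose integrity number exceeded 7. For the counting, neither annotation release nor strand setting is given in the sources used here. The genome derives from C57BL/6, and its effect on counts of C3H reads was not tested. Symbols, exon lengths and gene order came from GENCODE M21 on GRCm38, which named 51948 of 56941 identifiers.

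Libraries were grouped by strain from their labels. Every pair within a strain differed more than 1 library sequenced again would (chi-square over its degrees of freedom 23.3 to 89.6). This does not tell whether the libraries came from separate mice. Counts were fitted with edgeR 4.0.16 (R 4.3.3): TMM scaling (factors 0.915 to 1.13), filterByExpr with a minimum count of 10, the quasi-likelihood F test, Benjamini-Hochberg adjustment over 18025 genes and a threshold of 0.05. Fold changes are C3H over B6, CPM use TMM-scaled library sizes, and ratios of members use log2 CPM with a prior count of 2 and SciPy 1.17.1. The method was tested on simulated data.

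The members, lists and alternatives were chosen with earlier results of these data known. Named genes are the members; of each other tuft list up to 4, and of each other list up to 2, with the smallest adjusted p past the threshold; and the 10 genes most like the members. Further list genes given with values, such as Gnat3, Il25, Pou2af3 and Slc18a3, and the neighbours, were chosen once values were known.

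Alternatives were other scalings, DESeq2 1.42.0, limma-voom (limma 3.58.1), no filter on low counts or a minimum mean of 100 counts, each library left out in turn, a replicate block, the 4 pancreas-rich libraries left out, a threshold of 0.01 and prior counts of 0.5 and 5.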

Additional observations from a re-analysis of the deposited data

Results flagged for a closer look

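Single libraries were compared with the other 3 of their strain for 84 sets of 4 values (each of the 9 identity genes and each list gene named by the rule, in each strain), and 3 had a value whose gap to its neighbour took so much of the range that Dixon's 95% critical value was passed, where chance gives about 1 in 20. Lrmp was at 11.3 CPM in C3H 5 and 9.13 to 9.44 CPM in the other C3H libraries. Without C3H 5 its log2 fold change was -0.87 (edgeR adjusted p = 0.000114). Scg5, an enteroendocrine marker, was at 1.65 CPM in B6 2 and 2.43 to 2.49 CPM in the other B6 libraries. Uchl1, a neuronal marker, was at 4.45 CPM in C3H 3 and 4.04 to 4.07 CPM in the other C3H libraries.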

How the results depend on the processing

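Pou2f3, Dclk1, Avil, Rgs13, Sh2d6, Sh2d7 and Lrmp were lower in C3H under every alternative that could test them, Gfi1b passed in none of 17, and Chat passed in 8 of 17 (log2 fold change -1.75 to -0.73). The number of members lower was 7 or 8, or 6 of the 6 tested with a mean of at least 100 counts. With 1 library left out, 7 to 8 members were lower and their median log2 fold change ran from -1.28 to -0.88. In those fits 25 to 31 other tuft genes changed, against 32 with all libraries. Between 4 and 13 pairs had ratios with no overlap, a number that leaving a library out can hardly lower. Without the 4 pancreas-rich libraries the members' median was -1.25 and 12 other tuft genes changed. With a mean of at least 100 counts 21 of 47 tested changed, by construction fewer genes, and at a threshold of 0.01 it was 19. With library totals it was 22, and the median of all genes moved to 0.09. No pair passed under either other prior count. No result reversed.

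Replicate numbers 3, 4 and 5 occur in both strains. Deviations of same-numbered libraries correlated at 0.01, 0.18 and -0.05, so the numbers were not taken as pairs. In these 6 libraries 7 members were lower with the replicate block and 7 without it (median -0.95 in both), and 27 and 28 other tuft genes changed. Chat did not pass with the block (adjusted p = 0.25, edgeR) or without it (0.207). The ratio moved 1 way in every same-numbered pair of libraries for 17 of the 36 pairs of members. With so few pairs of libraries this often happens by chance, and the ratios share members. The count was not tested.

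Depth limits Gfi1b and Chat, with 54 and 43 counts over the C3H libraries, and Tas1r2 and Sucnr1, with 8 and 23. Among the calls that ended without the pancreas-rich libraries were those of Ache, B4galnt4, Gfi1, Slc44a4, Sucnr1 and Tas1r3 (adjusted p from 0.0578 for Tas1r3 to 0.164 for Ache, edgeR). The calls of Bche and Pou2af2 held in only 8 and 4 of 18 alternatives.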
